A study of Homo sapiens with 6 samples.

Results

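Histone mRNA processing and histone chaperone genes are described here in REH cells treated with the CDK9 inhibitor SNS-032. The group comprised 10 genes, chosen by symbol for their known roles: SLBP, ERI1, LSM10, LSM11, NPAT and CASP8AP2, which act on histone genes and their mRNAs, and ASF1A, ASF1B, CHAF1A and NASP, which carry newly made histones H3 and H4. All 10 were found among the 18216 genes measured, and all 10 passed the limit of a mean of 1 FPKM in either treatment that 12239 genes passed. REH is a human B-cell acute lymphocytic leukemia (B-ALL) line, so every value comes from 1 line in culture. Cells received 200 nM SNS-032, a small molecule that inhibits CDK9 and other cyclin-dependent kinases, or its solvent DMSO for 24 h, and 3 RNA-seq libraries were made from each treatment. Values are FPKM, fragments normalised to transcript length and to the mapped fragments of the library, so a gene is measured relative to the other transcripts beside it.

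Histone supply has to match DNA replication. The replication-dependent histone genes are transcribed in S phase, and their mRNAs end in a conserved stem-loop in place of a poly(A) tail. NPAT, a substrate of cyclin E kinase, switches these genes on in the histone locus body, where CASP8AP2 (also called FLASH) helps to recruit the machinery that cuts the nascent RNA. The U7 snRNP, whose ring contains the particular subunits LSM10 and LSM11, pairs with the RNA after the stem-loop and places the cut. SLBP binds the stem-loop and stays with the mRNA through export and translation, and ERI1 is an exonuclease that binds the same stem-loop and trims the end of the mRNA when it decays. The proteins made from these mRNAs are received by chaperones: NASP keeps a soluble store of H3-H4, ASF1A and ASF1B hand H3-H4 on, and CHAF1A is the large subunit of CAF-1, which deposits them behind the replication fork. Kinase activity of CDK9 has itself been linked to the ending of histone mRNAs, which makes the genes of this machinery of interest in cells treated with a CDK9 inhibitor.

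The stem-loop that SLBP and ERI1 share is shown for 4 histone genes, 1 for each of the sequences found in 3 or more genes, because it is the site on which both proteins act. In GENCODE v29 transcripts a match to a fixed pattern was found for 30 of the 68 replication-dependent histone genes measured, and it came in 6 versions. The other genes are not shown to lack a stem-loop, since the search depends on the pattern and on the annotated transcript ends. After the stem-loop the annotated transcripts ran on for 51 bases in HIST1H2AE, 1022 in HIST1H4E, 39 in HIST1H2BD and 194 in HIST2H4A. The most frequent version was carried by 15 genes, and the next ones by 5, 5 and 3 genes. Capitals mark the 16 bases of the stem-loop, and lower case letters are the 5 bases on either side. The sites lie after the coding sequence, on build GRCh38 at chr6:26217412-26217437 (plus strand) for HIST1H2AE, chr6:26204996-26205021 (plus) for HIST1H4E, chr6:26158582-26158607 (plus) for HIST1H2BD and chr1:149833027-149833052 (plus) for HIST2H4A.
HIST1H2AE: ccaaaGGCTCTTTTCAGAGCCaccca
HIST1H4E: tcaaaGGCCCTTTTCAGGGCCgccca
HIST1H2BD: ccaaaGGCTCTTTTAAGAGCCacgca
HIST2H4A: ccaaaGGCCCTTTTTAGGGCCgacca
HIST2H4A has a second copy, HIST2H4B, with identical FPKM in every library, so reads of such copies could not be told apart.

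Most of the 10 genes fell. By limma on log2(FPKM + 1), with an adjusted p under 0.05, 9 were lower after SNS-032 and 1, ERI1, was higher. The median log2 fold change of the 10 genes was −1.13. Among all genes tested, 49.3% were lower and 39.9% were higher (median −0.14), so a fall by itself was common in these cells. Falls of at least 1 on the log2 scale were seen in 6 of the 10 genes, against 19.5% of all genes, and a fall of at least 2 was seen in 1 of the 10, against 2.43% of all genes. In 9 of the 10 genes every SNS-032 library lay below every DMSO library, an arrangement shown by 49.5% of all genes tested, and in none did every SNS-032 library lie above, as it did in 40.2% of all genes. The p-values measure the spread between 3 libraries per treatment, which may be technical, since the labels do not say whether they came from separate cultures. In bulk RNA, fewer cells of a kind, such as cells in S phase, and less RNA per cell cannot be told apart.

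**Figure D1:**
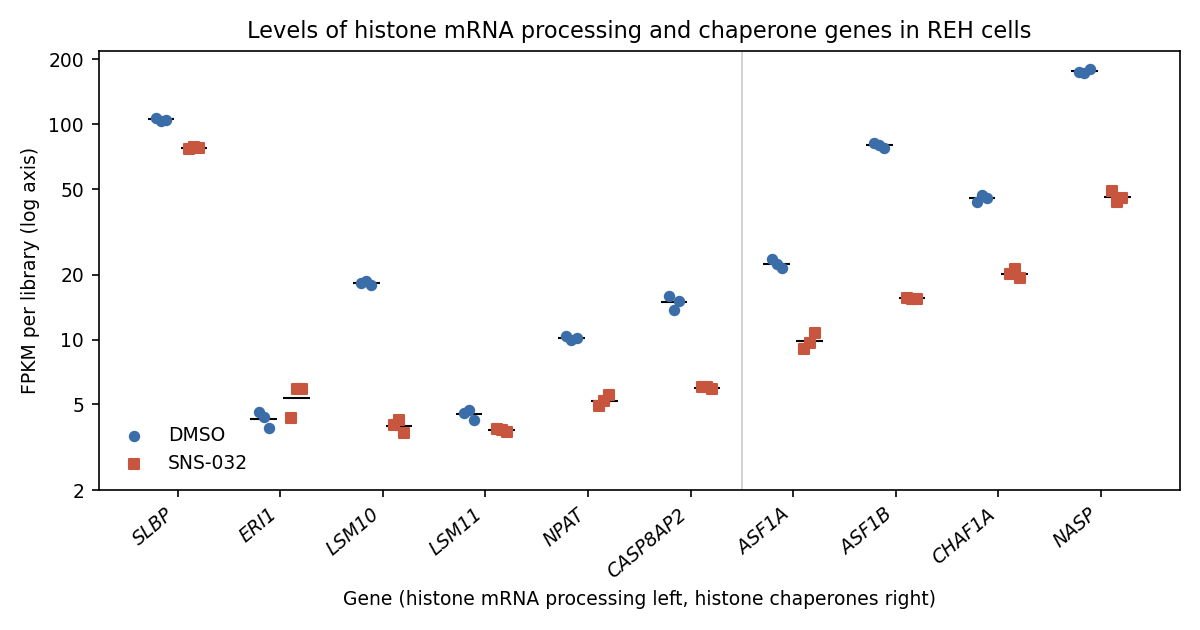
FPKM of the 10 genes (log axis) in each library, circles for DMSO and squares for SNS-032, with a line at the mean of 3 libraries. The treatments are apart for 9 genes and overlap for ERI1, where 1 SNS-032 library, at 4.32 FPKM, lies among the DMSO libraries.

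The order of the levels, which FPKM allow to be compared between genes because they are given per length, was not the same in both treatments. With DMSO it ran from NASP (173.58 to 180.52 FPKM) through SLBP, ASF1B, CHAF1A, ASF1A, LSM10, CASP8AP2 and NPAT to LSM11 and ERI1 (3.88 to 4.59 FPKM). Only LSM11 and ERI1, the lowest pair, overlapped with each other. With SNS-032 SLBP came first (76.71 to 78.21 FPKM), before NASP, CHAF1A, ASF1B and ASF1A. The 5 genes that followed lay close together between 3.69 and 6.05 FPKM, and CASP8AP2 could not be ranked against ERI1, ERI1 against NPAT, or LSM10 against LSM11, because their libraries overlapped.

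SLBP, the stem-loop binding protein, was among the least changed of the 10 genes and remained abundant. Its FPKM were 107.19, 103.35 and 105.05 in the DMSO libraries and 76.71, 78.21 and 77.78 in the SNS-032 libraries. All SNS-032 libraries were below all DMSO libraries, and the libraries of a treatment differed little. The mean changed from 105 ± 1.92 to 77.6 ± 0.772 FPKM (SD, n = 3 libraries each), 1.36-fold lower, with a log2 fold change of −0.43 (standard error 0.038, adjusted p = 3.55e-07 from limma). SLBP (Entrez gene 7884) lies on chromosome 4 of GRCh38 from 1692800 to 1712555, on the minus strand.

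ERI1, the exonuclease that shares the stem-loop with SLBP, was the exception among the 10 genes. It was measured at 4.59, 4.38 and 3.88 FPKM after DMSO and at 4.32, 5.89 and 5.87 FPKM after SNS-032. SNS-032 replicate 1 lay within the DMSO range and replicates 2 and 3 above it. The mean was 4.28 ± 0.365 after DMSO and 5.36 ± 0.901 FPKM after SNS-032 (SD, n = 3 libraries each), and the log2 fold change was 0.26 (standard error 0.10, adjusted p = 0.0318 from limma). The call was lost without DMSO replicate 2 (adjusted p = 0.0548) or 3 (0.12), without SNS-032 replicate 2 (0.122) or 3 (0.115), without the filter on low values (0.066) and with libraries rescaled to the same total (0.0814), all from limma. Without SNS-032 replicate 1 the log2 fold change was 0.38 (adjusted p = 0.000819). ERI1 (Entrez gene 90459) lies on chromosome 8 from 9002147 to 9116746, on the plus strand.

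Within each library there was less SLBP RNA for each unit of ERI1 RNA after SNS-032. The FPKM ratio of SLBP to ERI1 was 23.4, 23.6 and 27.1 after DMSO and 17.8, 13.3 and 13.3 after SNS-032. The treatments did not overlap, and SNS-032 replicate 1 was again nearest to DMSO. On the scale of log2(FPKM + 1) the log2 ratio fell by 0.69 (pooled SD 0.157). The two-sided exact permutation test gave p = 0.1, the smallest that 3 libraries against 3 allow, and 0.1 after adjustment over the 3 ratios tested.

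The U7 snRNP genes LSM10 and LSM11 changed unequally. LSM10 stood at 18.29, 18.76 and 17.99 FPKM after DMSO and at 4.01, 4.22 and 3.69 FPKM after SNS-032. The treatments were far apart, and LSM10 had the second largest fall of the 10 genes, 4.62-fold, with a log2 fold change of −1.96 (standard error 0.063, adjusted p = 4.48e-11 from limma). LSM11 stood at 4.57, 4.69 and 4.25 FPKM after DMSO and at 3.85, 3.82 and 3.72 FPKM after SNS-032. These ranges did not overlap but nearly met, and the fall was 1.19-fold, with a log2 fold change of −0.20 (standard error 0.068, adjusted p = 0.0166). The call for LSM11 was lost without DMSO replicate 1 (adjusted p = 0.0527 from limma) or replicate 2 (adjusted p = 0.0682). LSM10 (Entrez gene 84967) lies on chromosome 1 from 36391238 to 36397892 and LSM11 (Entrez gene 134353) on chromosome 5 from 157743695 to 157760709.

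**Figure D2:**
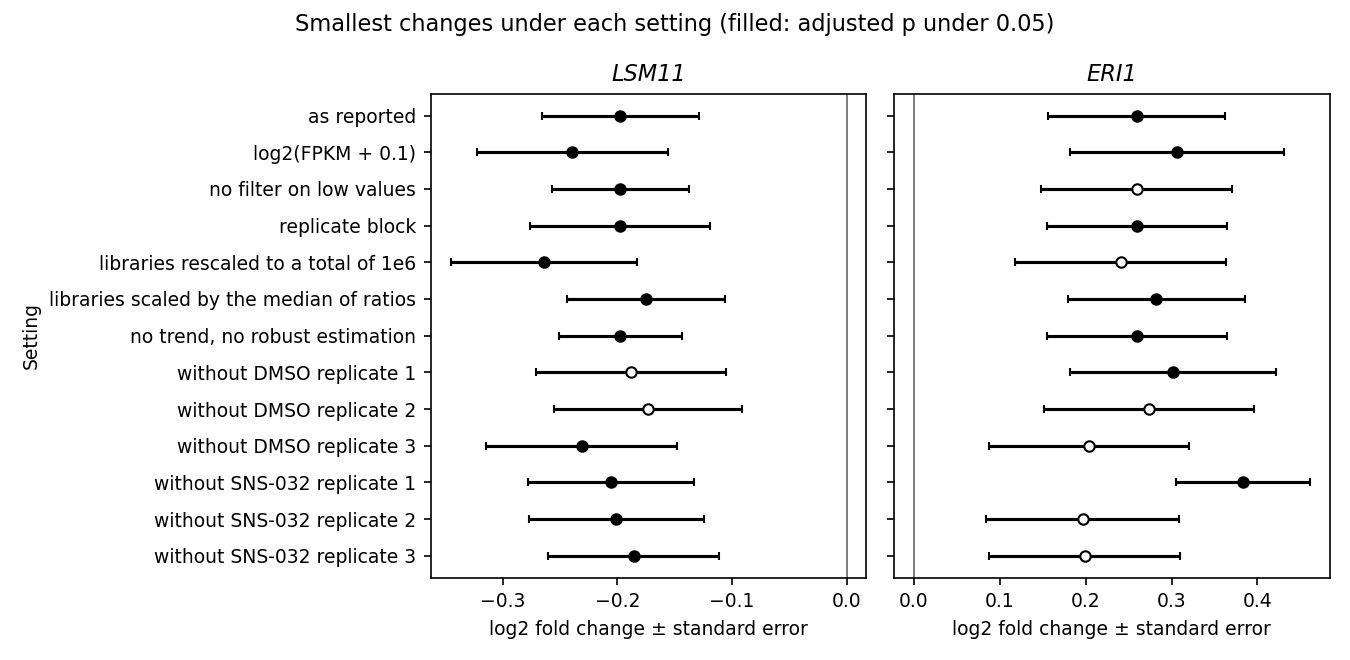
Log2 fold change ± standard error of LSM11 and ERI1, the smallest changes among the 10 genes, as reported and under 12 other settings, with filled points where the adjusted p from limma was under 0.05. LSM11 stays below 0 and ERI1 above 0 in each, but LSM11 loses its call in 2 settings and ERI1 in 6.

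The FPKM ratio of LSM10 to LSM11 was 4.002, 4 and 4.23 in the DMSO libraries and 1.04, 1.10 and 0.992 in the SNS-032 libraries. LSM10 had the higher FPKM in every DMSO library, and the genes were about level after treatment. These are RNA values, and the proteins were not measured here. The log2 ratio on the scale of log2(FPKM + 1) fell by 1.76 (pooled SD 0.0505, exact permutation p = 0.1, and 0.1 adjusted over 3 ratios).

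**Figure D3:**
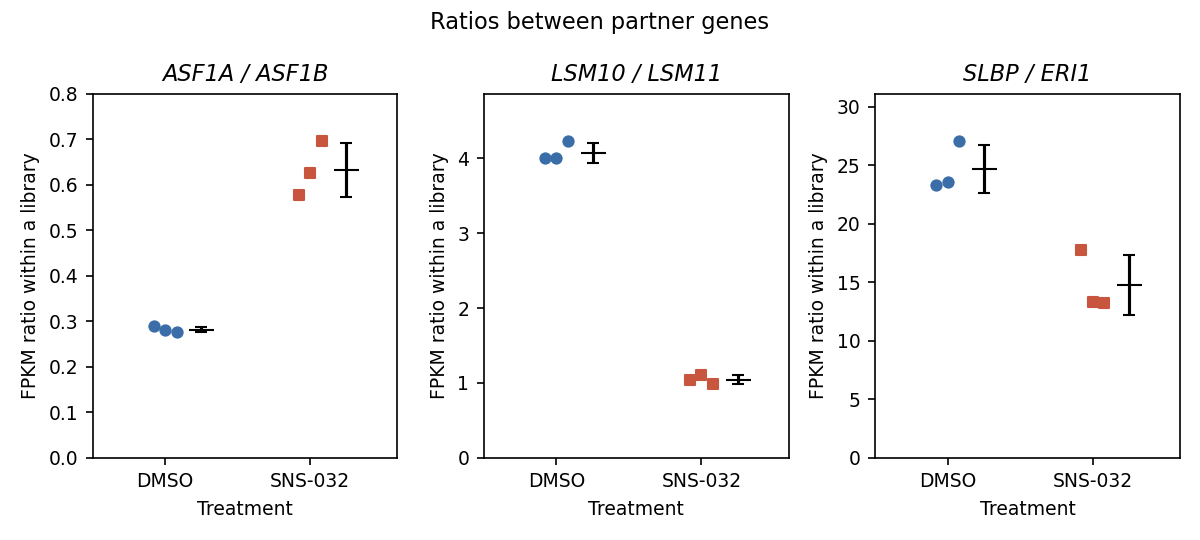
FPKM ratio within each library (linear axes from 0) for ASF1A to ASF1B, LSM10 to LSM11 and SLBP to ERI1, circles for DMSO and squares for SNS-032, with the mean and SD of 3 libraries. ASF1A to ASF1B is higher after SNS-032 and the other ratios are lower, with no overlap between treatments.

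NPAT and CASP8AP2, which work together in the histone locus body, were both lower. NPAT, the coactivator of histone transcription, had 10.39, 9.97 and 10.14 FPKM after DMSO and 4.93, 5.16 and 5.5 FPKM after SNS-032. CASP8AP2 had 15.92, 13.7 and 15.09 FPKM after DMSO and 6.05, 6.03 and 5.87 FPKM after SNS-032. Both genes had all SNS-032 libraries well below all DMSO libraries. NPAT was 1.96-fold lower, with a log2 fold change of −0.85 (standard error 0.063, adjusted p = 6.99e-08 from limma), and CASP8AP2 was 2.49-fold lower, with −1.19 (standard error 0.066, adjusted p = 4.82e-09). NPAT (Entrez gene 4863) spans 108157215 to 108222642 on chromosome 11 and shares 159 bases at its start with a protein-coding gene on the other strand. CASP8AP2 (Entrez gene 9994) spans 89829894 to 89874436 on chromosome 6. Whether the authors counted reads by strand is not given in the sources used here.

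The 4 chaperone genes all fell. Each was lower by at least 1 on the log2 scale, with a median log2 fold change of −1.52. Of the 6 processing genes 5 were lower, 2 of them by at least 1, with a median of −0.64. Over all genes tested, 49.3% were lower, and 19.5% were lower by at least 1. Summed over the 4 genes, the chaperones held 323.17 to 325.36 FPKM in a DMSO library and 90.13 to 93.86 FPKM in an SNS-032 library. The 6 processing genes summed to between 154.85 and 160.95 FPKM after DMSO and between 99.87 and 103.33 FPKM after SNS-032, of which SLBP held the greater part. The difference between these subsets was not tested.

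**Figure D4:**
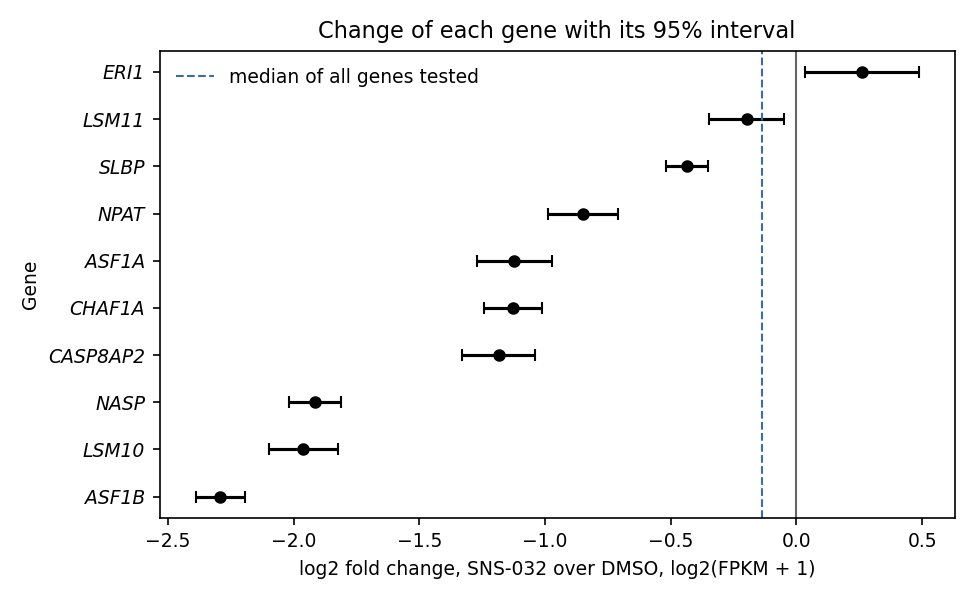
Log2 fold change of each gene, SNS-032 over DMSO on log2(FPKM + 1), with its 95% confidence interval from limma, and a dashed line at the median of all genes tested (−0.14). ASF1B, LSM10 and NASP lie near −2, ERI1 alone lies above 0, and the interval of LSM11 (−0.35 to −0.05) holds the median of all genes.

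NASP, the H3-H4 store, was the most abundant of the 10 genes after DMSO and lost the most FPKM. It had 175, 173.58 and 180.52 FPKM after DMSO and 48.99, 43.75 and 45.54 FPKM after SNS-032. The spread within a treatment was small beside this gap. The mean changed from 176 ± 3.67 to 46.1 ± 2.66 FPKM (SD, n = 3 libraries each), 3.83-fold lower, with a log2 fold change of −1.91 (standard error 0.047, adjusted p = 6.32e-12 from limma). NASP (Entrez gene 4678) lies on chromosome 1 from 45583846 to 45618904, on the plus strand.

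ASF1A and ASF1B are paralogs, of which ASF1B is the form tied to proliferating cells. ASF1B had 81.53, 80.23 and 77.82 FPKM after DMSO and 15.66, 15.44 and 15.45 FPKM after SNS-032. This was the largest fall of the 10 genes, 5.15-fold, with a log2 fold change of −2.29 (standard error 0.045, adjusted p = 1.17e-12 from limma), at percentile 1.14 of the fold changes of all genes tested. ASF1A had 23.54, 22.51 and 21.51 FPKM after DMSO and 9.04, 9.66 and 10.76 FPKM after SNS-032. It was 2.29-fold lower, with a log2 fold change of −1.12 (standard error 0.068, adjusted p = 9.7e-09). Neither gene showed overlap between the treatments.

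The FPKM ratio of ASF1A to ASF1B was 0.289, 0.281 and 0.276 after DMSO and 0.577, 0.626 and 0.696 after SNS-032. ASF1B stayed the more abundant paralog in every library, but by less after SNS-032. On the scale of log2(FPKM + 1) the log2 ratio was higher by 1.17 (pooled SD 0.0899, exact permutation p = 0.1, and 0.1 adjusted over 3 ratios). ASF1B (Entrez gene 55723) lies on chromosome 19 from 14119509 to 14136956, on the minus strand. ASF1A (Entrez gene 25842) lies on chromosome 6 from 118894220 to 118909167, on the plus strand, wholly inside the span of MCM9 on the other strand. MCM9, a helicase of DNA repair, had 8.48 ± 0.397 FPKM after DMSO and 8.03 ± 0.35 FPKM after SNS-032 (SD, n = 3 libraries each, adjusted p = 0.309 from limma).

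CHAF1A, the large subunit of CAF-1, had 43.73, 46.85 and 45.51 FPKM after DMSO and 20.17, 21.28 and 19.21 FPKM after SNS-032. The treatments were apart, and the fall was 2.24-fold, with a log2 fold change of −1.13 (standard error 0.053, 95% confidence interval −1.24 to −1.01, adjusted p = 1.04e-09 from limma). CHAF1B, the middle subunit of CAF-1, changed from 31.7 ± 1.13 to 6.11 ± 0.447 FPKM (SD, n = 3 libraries each), with a log2 fold change of −2.20 (95% confidence interval −2.34 to −2.07). The intervals of these CAF-1 subunits did not overlap. CHAF1A (Entrez gene 10036) lies on chromosome 19 from 4402662 to 4445018, on the plus strand.

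Promoters are shown for 4 of the 6 genes that were lower by at least 1 on the log2 scale. These are the paralogs ASF1B and ASF1A, which fell unequally, CASP8AP2 and CHAF1A. Those of LSM10 and NASP, which fell more than ASF1A, CASP8AP2 and CHAF1A, are not shown. Each covers 250 bases before and 50 bases after the start site, taken from RefSeq on build GRCh38.p14, where 9 of the 10 genes had an entry. Letters searched on both strands were CCAAT (the CCAAT box, bound by NF-Y), GGGCGG (the GC box), CACGTG (the E box, bound by MYC and its relatives), TTTGAA (the cell-cycle homology region, CHR) and the E2F words TTTGGCGC, TTTCCCGC, TTTGCCGC and TTTCGCGC. Capitals mark every match except GC boxes, and a match on the other strand reads as its reverse complement, so that ATTGG is a CCAAT box. The regions are chr19:14136540-14136839 (minus strand) for ASF1B, chr6:118893902-118894201 (plus) for ASF1A, chr6:89829630-89829929 (plus) for CASP8AP2 and chr19:4402390-4402689 (plus) for CHAF1A.
ASF1B: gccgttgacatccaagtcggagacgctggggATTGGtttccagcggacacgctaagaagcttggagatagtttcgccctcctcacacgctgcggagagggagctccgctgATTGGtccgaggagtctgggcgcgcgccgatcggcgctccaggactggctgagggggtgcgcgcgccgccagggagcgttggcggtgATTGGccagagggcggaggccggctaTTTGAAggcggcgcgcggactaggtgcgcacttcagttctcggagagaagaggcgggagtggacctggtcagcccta
ASF1A: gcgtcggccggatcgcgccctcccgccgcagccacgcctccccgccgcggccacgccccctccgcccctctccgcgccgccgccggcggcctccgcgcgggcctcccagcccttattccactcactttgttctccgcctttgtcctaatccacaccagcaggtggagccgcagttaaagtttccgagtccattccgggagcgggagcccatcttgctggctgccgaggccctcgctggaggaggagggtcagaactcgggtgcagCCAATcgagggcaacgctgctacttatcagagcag
CASP8AP2: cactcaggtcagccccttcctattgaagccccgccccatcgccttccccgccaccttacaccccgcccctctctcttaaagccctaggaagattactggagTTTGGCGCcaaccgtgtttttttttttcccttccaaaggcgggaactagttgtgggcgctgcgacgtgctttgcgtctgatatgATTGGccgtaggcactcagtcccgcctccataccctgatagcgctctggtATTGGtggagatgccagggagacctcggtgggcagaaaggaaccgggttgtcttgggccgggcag
CHAF1A: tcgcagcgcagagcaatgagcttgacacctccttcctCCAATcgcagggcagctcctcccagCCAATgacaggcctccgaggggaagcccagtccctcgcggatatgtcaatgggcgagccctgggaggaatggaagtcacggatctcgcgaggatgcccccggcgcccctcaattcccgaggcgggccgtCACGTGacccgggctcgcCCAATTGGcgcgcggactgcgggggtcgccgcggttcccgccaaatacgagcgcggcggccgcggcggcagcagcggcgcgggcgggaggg

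A CCAAT box was present in 7 of the 9 promoters, all but those of SLBP and LSM11, and in 37.4% of 9950 promoters of genes tested. ASF1B held 3 CCAAT boxes before its start site, the nearest at −53, followed by a CHR at −27. ASF1A held 1 CCAAT box, at 16 after its start site. LSM10 and NASP, whose promoters are not shown, held 1 each, at −101 and −203. A CHR was found in 2 of the 9 promoters, ASF1B and LSM11, and in 998 of the 9950. CASP8AP2 alone carried an E2F word, at −149, against 5.5% of all promoters, and CHAF1A alone an E box, at −59, against 10.3%. Only the exact E2F words listed were searched, so E2F sites of other forms would be missed. The 4 CCAAT boxes of CHAF1A included an overlapping pair on opposite strands, at −41 and −38. The GC box was in 8 of the 9 promoters and in 68.8% of all. SLBP and LSM11, the least lowered of the 9 genes that fell, were also those without a CCAAT box, which describes these 9 promoters and is not a test of any factor.

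Of 13 other factors of histone pre-mRNA cleavage and of the mRNA cap, 9 were lower and 4 were higher (median log2 fold change −0.94, adjusted p under 0.05 from limma), beside 49.3% lower and 39.9% higher over all genes tested. CPSF3, the endonuclease that makes the cut, went from 41.0 ± 1.1 to 7.68 ± 0.382 FPKM (SD, n = 3 libraries each), a log2 fold change of −2.28, and its partner CPSF2 had −2.17. SNRPG, an Sm protein that the U7 snRNP shares with the spliceosome, had −1.87. In the other direction SRRT (ARS2), which links the cap to RNA processing, went from 93.7 ± 3.26 to 281 ± 11.6 FPKM (SD, n = 3 libraries each), a log2 fold change of 1.57, and ZNF473, a zinc finger protein of the U7 complex, and NCBP2 of the cap-binding complex had 0.38 and 0.21.

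Of 9 factors of histone mRNA translation and decay beside ERI1, 8 were tested, of which 4 were lower, 3 higher and 1 not called (median log2 fold change −0.07). These counts were near the shares over all genes tested, 49.3% lower and 39.9% higher. UPF1, the helicase that starts histone mRNA decay with SLBP, had a log2 fold change of 0.72, the exonuclease XRN1 0.40 and the decapping enzyme DCP2 0.20. MIF4GD (SLIP1), which joins SLBP to translation, had −1.35, the uridylyl transferase TUT7 −0.85 and LSM1, which binds the uridylated tail, −0.44.

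Most other histone chaperones were also lower, beside 49.3% lower and 39.9% higher over all genes tested. Of 18 other H3-H4 chaperones and partners, 13 were lower, 1 was higher and 4 were not called (median log2 fold change −0.68). DNAJC9, a heat shock co-chaperone of H3-H4, CHAF1B and the importin IPO4, which takes H3-H4 into the nucleus, had log2 fold changes of −2.21, −2.20 and −1.99. HJURP, the chaperone of the centromeric H3 variant, was the one that rose, by 0.75. HIRA of the replication-independent pathway had −0.10 (adjusted p = 0.0865 from limma) and did not pass. Its partners UBN1 (−0.26), UBN2 (−0.80) and CABIN1 (−0.76) were called lower, as were DAXX (−0.98) and ATRX (−0.59). Of 10 chaperones of H2A-H2B and general histone carriers, 9 were lower and none higher (median −1.11), led by VPS72, which handles H2A.Z (−2.54), and the nucleolar proteins NCL (−2.08) and NPM1 (−1.73).

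Most genes of S phase and DNA replication were lower, as were 9 of the 10 genes. Of 21 such genes 20 were lower and none higher (median log2 fold change −1.34), beside 49.3% lower and 39.9% higher over all genes tested. CDC6, which loads the replicative helicase, had −3.08, the helicase subunit MCM6 −2.89 and the primase subunit PRIM1 −2.71. E2F1 had −0.10 and did not pass (adjusted p = 0.126 from limma). The part of the S phase genes in the values of the 10 genes was not tested.

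The replication-dependent histone genes themselves, on whose mRNAs and proteins the 10 genes act, were higher, in the direction opposite to 9 of the 10 genes and the same as ERI1. Of the 68 genes measured, 62 were tested and all 62 were higher, among them the 4 whose stem-loops are shown above. Over all genes tested, 39.9% were higher. Most of the 62 had a mean under 1 FPKM after DMSO and passed the filter only through SNS-032. The direction of such genes was fixed by the filter, so the count of 62 is not a test of it. The median log2 fold change of the 62 genes was 3.56, ranging by class from 3.10 (H4) to 3.86 (H1). These medians come from the same filtered genes and share this limit. The summed FPKM of all 68 genes, which no filter touched, went from between 77.04 and 83.95 after DMSO to between 1460.96 and 1922.72 after SNS-032. Near-identical copies make single histone genes uncertain, and how the library preparation treated mRNAs without a poly(A) tail is not given in the sources used here.

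**Figure D5:**
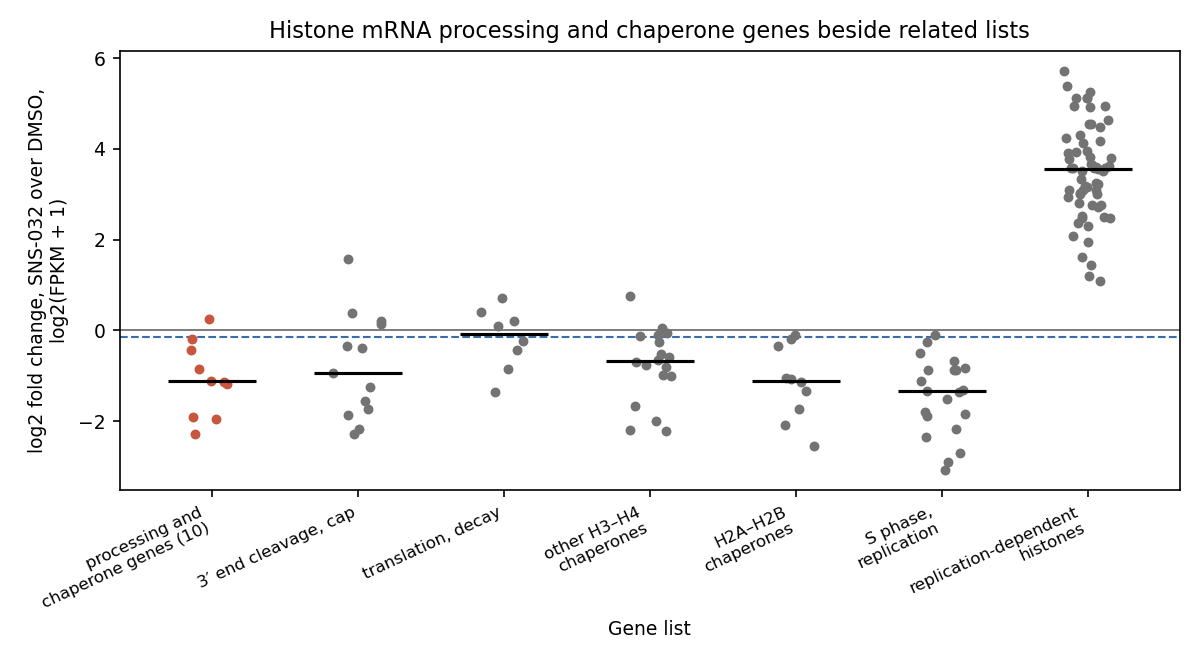
Log2 fold change (SNS-032 over DMSO, log2(FPKM + 1)) of every tested gene in each list, with a bar at the median, a line at 0 and a dashed line at the median of all genes (−0.14). The 10 processing and chaperone genes have a median of −1.13. The medians of the other lists are −0.94 (cleavage and cap), −0.07 (translation and decay), −0.68 (other H3-H4 chaperones), −1.11 (H2A-H2B chaperones) and −1.34 (S phase). The 62 histone genes tested lie between 1.08 and 5.72, and most of them passed the filter only through SNS-032.

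The libraries were uniform within each treatment. Pearson's r across genes was at least 0.998 between DMSO libraries, at least 0.9947 between SNS-032 libraries and at most 0.8344 between treatments. All 10 precursor B markers were expressed, with summed FPKM of 1822.63 to 1970.67 after DMSO and 1143.81 to 1275.3 after SNS-032. Of the markers of other blood cells, 6 of 7 for T cells were in the table and summed to between 0.37 and 0.47 FPKM after DMSO and between 2.61 and 4.76 after SNS-032. CD3D, CD3E and CD4 stayed at or below 0.09 FPKM in every library, while CD5 and CD8A, both under 1 FPKM and not tested, and CD3G were higher in every SNS-032 library than in any DMSO library. CD3G went from 0.257 to 2.94 FPKM on average, a log2 fold change of 1.62, and was called higher. It passed the filter only through SNS-032, so its direction was fixed by the filter. The 5 of 7 for myeloid cells summed to between 8.2 and 8.65 FPKM after DMSO and between 18.73 and 21.59 FPKM after SNS-032. Of these, LYZ (log2 fold change 2.09) and CD14 (1.62) were called higher and CSF1R (−1.52) lower, while MPO and ITGAM were not tested. CD14 (means of 0.0667 after DMSO and 2.32 FPKM after SNS-032) also passed only through SNS-032, so its direction was fixed too. The 4 of 6 for erythroid cells summed to at most 0.29 FPKM. None of these was at 0 in every library, and their part in the values of the 10 genes was not tested.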

How the data were processed

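RNA was taken from REH cells after 24 h with 200 nM SNS-032 or DMSO, in 3 libraries each. The paper states that the authors mapped filtered reads with Bowtie2 and HISAT and computed FPKM with RSEM, and HISAT2 2.0.4 and GRCh38.p12 are named by the submitters' processing notes. The deposited FPKM of each gene have 2 decimals and stand in a table that also holds the log2 fold change, q-value and p-value of the comparison by the authors, none of which were used. No counts were used, so depth and counting error are unknown.

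Genes whose mean reached 1 FPKM after DMSO or after SNS-032 were tested as log2(FPKM + 1) with limma 3.58.1 in R 4.3.3 (trended prior, robust estimation, no block), with Benjamini-Hochberg adjustment over all 12239 genes and a threshold of 0.05. A fold change on this scale understates the change of low genes. Folds in FPKM are ratios of means. Ratios between genes were tested with a two-sided exact permutation test. Gene models were those of GENCODE v29 on GRCh38, and sequences were read with Python 3.11.15.

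Named genes are the 10 genes and, of each related list, up to 3 rises and 3 falls that passed the test and reached 5 FPKM in the higher treatment, with values of histone genes only as counts, sums and medians. MCM9, HIRA, UBN1, UBN2, CABIN1, DAXX, ATRX and E2F1 fall outside this rule. So do the blood cell markers with values and the histone genes whose stem-loops are shown. All of these were named after their values were seen. The genes and lists were chosen with earlier results of these data known. Alternatives were a pseudocount of 0.1, no filter, a replicate block, other scalings, no trend or robust estimation, and leaving out each library. The motifs and the comparison of processing genes with chaperone genes were added after the values were seen.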

Additional observations from a re-analysis of the deposited data

How the results depend on the processing

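SLBP, NPAT, CASP8AP2, LSM10, ASF1A, ASF1B, CHAF1A and NASP were called lower by limma under all 12 alternatives. The number of the 10 genes called higher was 0 without the filter on low values and with libraries rescaled to a total of 1e+06, and 0 to 1 without 1 library. These changes come from ERI1, with log2 fold changes of 0.26 (adjusted p = 0.066 from limma) and 0.24 (adjusted p = 0.0814) in those settings and 0.20 to 0.38 (adjusted p from 0.000819 to 0.122) without 1 library. For LSM11 the log2 fold change was −0.23 to −0.17 (adjusted p from 0.0208 to 0.0682) without 1 library, and the number called lower was 8 to 9. The log2 ratio of LSM10 to LSM11 changed by −1.94 with log2(FPKM + 0.1), since adding less compresses low values less. With the replicate number as a block, 9 of the 10 genes were lower and 1 higher, and 5989 of all genes were lower and 4862 higher. Same-numbered libraries did not deviate together (r across genes −0.12, 0.01 and −0.02). No pairing by number was seen, but such small values cannot exclude one. Without the filter, 6311 of 18216 genes were lower and 6801 higher, and the median log2 fold change over them was 0.02. With the filter it was −0.14, and −0.11 under both other scalings. Depth is unknown, so counting error could not be given for any gene. Where a call was lost, the cause was not tested.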
